A study of Mus musculus with 6 samples.

Results

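The genes described here store iron, carry it into and out of cells, or deal with free hemoglobin and heme. They are 10 genes chosen by name (Fth1, Ftl1, Trf, Tfrc, Slc11a2, Slc40a1, Cp, Hp, Hpx and Hmox1) out of 55450 genes in the table of counts. All 10 had a row in the table, and 8 passed the filter on low counts and were tested. Trf and Hpx did not pass it.

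Iron is needed for heme and for iron-sulfur clusters, but free iron drives oxidative damage, so cells take up, store and export it under tight control. Ferritin, built from heavy and light chains, stores iron in the cytosol. Transferrin carries iron in plasma to the transferrin receptor, DMT1 (encoded by Slc11a2) moves ferrous iron across membranes, and ferroportin (Slc40a1) exports it with the help of ferroxidases such as ceruloplasmin (Cp). Haptoglobin (Hp) and hemopexin (Hpx) bind free hemoglobin and heme in plasma, and heme oxygenase 1 (Hmox1) breaks heme down and releases its iron. The kidney filters iron-bearing proteins and takes them back up, chiefly in the proximal tubule.

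Kidneys of male wild-type C57BL/6J mice were sequenced in 2 groups of 3 mice, which were taken from study groups of 6 mice each. The mice were bought at 7 weeks of age, weighed 22 to 25 g and were kept for 1 week before the study began. The day-21 mice received a mixture by gavage every day for 21 days, with adenine at 0.16 g/kg and with potassium oxonate at 2.4 g/kg, which raises uric acid and injures the kidney. The day-0 mice were the control group and carry a label of 20% PEG (polyethylene glycol, a vehicle), although the study's methods have them killed at day 0 with no agent named. The day-21 mice were therefore also 21 days older, and agents, time, age and vehicle cannot be told apart. The 3 mice of a group were treated as separate animals, and a p-value measures only the spread between these mice.

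The question the comparison addresses is which transcripts differed in the kidney after 21 days of adenine and potassium oxonate. The 6 libraries held 10963849 to 14333311 counts. Across all 16592 genes tested, 19.6% were called higher and 15.5% lower on day 21. A gene was called where edgeR's quasi-likelihood test gave a Benjamini-Hochberg adjusted p under 0.05 and the fold was over 1.5. Levels are normalized CPM, counts as a share of a common library total after TMM scaling (edgeR's trimmed mean of M-values), and a log2 fold change is day 21 against day 0. Markers of the proximal tubule fell in this kidney tissue (summed level 13010 to 14900 CPM on day 0 and 2697 to 3342 CPM on day 21) and 10 of 10 were called lower. Macrophage markers rose from 149.1 to 182.7 CPM on day 0 to 774.2 to 913.6 CPM on day 21, and 9 of 10 were called higher. In whole tissue, fewer cells of a type and less RNA per cell cannot be told apart. The day-0 library of replicate 1 stood apart in Hmox1, and results that rest on it are given with and without it.

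Several of these transcripts carry an iron-responsive element, a short hairpin with a bulged C, a stem and a loop that begins CAGTG. When iron is scarce, the iron regulatory proteins IRP1 (encoded by Aco1) and IRP2 (Ireb2) bind it. Binding in the 5′ UTR blocks translation, and binding in the 3′ UTR keeps the transcript from being degraded. Counts of RNA therefore do not give the protein level of ferritin or ferroportin. The matches in the group, together with that of Alas2 (the heme synthesis enzyme of red cell precursors), follow here because the position of the hairpin separates the storage and export genes from the receptor. They come from GENCODE release 21 transcripts on GRCm38, are 30 bases long and run 5′ to 3′ in DNA letters, and the capitals mark the loop.
Fth1, 5′ UTR, chr19:9982732-9982761, plus strand: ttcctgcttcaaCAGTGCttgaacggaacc
Ftl1, 5′ UTR, chr7:45459778-45459807, minus strand: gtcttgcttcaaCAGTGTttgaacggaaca
Slc40a1, 5′ UTR, chr1:45925464-45925493, minus strand: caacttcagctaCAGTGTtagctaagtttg
Tfrc, 3′ UTR, chr16:32631219-32631248, plus strand: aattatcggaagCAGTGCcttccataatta
Tfrc, 3′ UTR, chr16:32631598-32631627, plus strand: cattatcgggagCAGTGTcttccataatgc
Tfrc, 3′ UTR, chr16:32631663-32631692, plus strand: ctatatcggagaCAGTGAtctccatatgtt
Tfrc, 3′ UTR, chr16:32631710-32631739, plus strand: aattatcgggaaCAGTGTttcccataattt
Alas2, 5′ UTR, chrX:150547458-150552150 across an intron, plus strand: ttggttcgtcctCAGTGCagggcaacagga

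The search asked for CAGTGN with a last base other than G, a C bulge 6 bases before the loop and 5 paired bases (G-T pairs allowed) between bulge and loop, on the transcript strand alone. Fth1, Ftl1 and Slc40a1 each held 1 match in the 5′ UTR, and Tfrc held 4 in the 3′ UTR. The matches lay in 4 of 5 annotated coding transcripts of Fth1, 1 of 3 of Ftl1, 1 of 4 of Slc40a1 and 1 of 3 of Tfrc. Counts per gene do not tell these transcripts apart. Of 21901 protein-coding genes, 22 (0.1%) held such a match in a 5′ UTR and 99 (0.452%) in a 3′ UTR. No match was found in the UTRs of the other 6 genes of the group, which says only that these letters are not there. A hairpin with an unpaired base in that stem, or with its bulge elsewhere, would have been missed, in Slc11a2 as in the others. In the stem next to the loop the heavy and light ferritin chains had the same letters.

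Among the 8 genes tested, 2 were called higher on day 21 (Cp and Slc40a1), 2 were called lower (Tfrc and Hmox1) and 4 were not called (Fth1, Ftl1, Slc11a2 and Hp). Across all genes 35.1% were called in either direction. The median log2 fold change of the 8 genes was -0.36, beside 0.03 for all genes tested, and it turned to 0.03 with library size alone as the scaling, under which the median of all genes was 0.42. In 5 of the 8 genes the 3 day-21 mice all lay on one side of the 3 day-0 mice, which held for 57.1% of all genes. Without day-0 replicate 1 the calls were 2 higher and 1 lower, since Hmox1 was no longer called. For a single gene, an exact permutation test of 3 against 3 mice cannot give a p under 0.1.

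**Figure D1:**
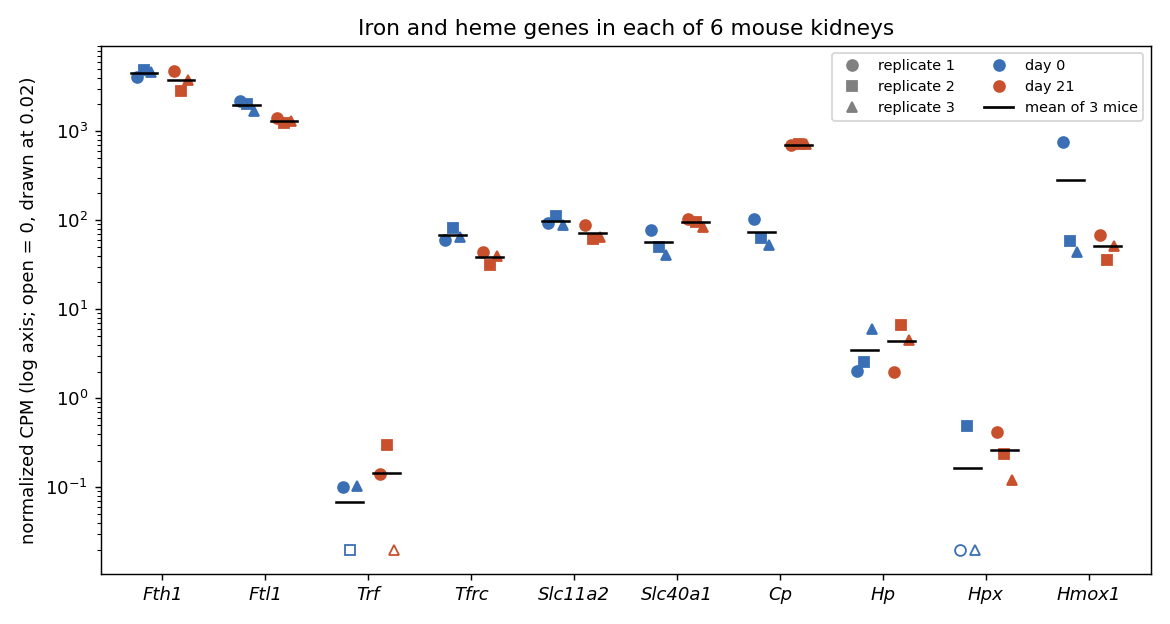
Normalized CPM (log axis) of the 10 genes in each mouse, with day 0 in blue, day 21 in red, symbols for the replicate and a bar at the mean of 3 mice. Open symbols are 0 counts and are drawn at 0.02. The 3 day-21 mice of Cp lie together at 695.5 to 715.6 CPM, and day-0 replicate 1 of Hmox1 lies alone at 750.0 CPM.

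Neither ferritin chain was called. Fth1 encodes the heavy chain, which carries the ferroxidase site that loads iron into the ferritin shell. It lies at chr19:9980598-9985098 on the plus strand (GRCm38), and its longest transcript has 3 exons. Its level was 4093, 4867 and 4559 CPM in the day-0 mice, and the day-21 mice had 4682, 2841 and 3703 CPM. The groups overlapped, since day-21 replicate 1 lay above 2 of the day-0 mice while the other day-21 mice lay below all of them. The mean was 4506 ± 390 CPM (SD, n = 3) on day 0 and 3742 ± 921 CPM (SD, n = 3) on day 21. The log2 fold change was -0.27 (SE 0.18, 95% CI -0.67 to 0.13, adjusted p = 0.253, edgeR quasi-likelihood test, Benjamini-Hochberg adjustment). A change of Fth1 was thus not detected, and its interval allows a level between 0.629 and 1.10 times that of day 0. The sign of this value turns with the scaling, to 0.12 with library size alone.

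Ftl1 encodes the light chain, which helps the stored iron core form. It lies at chr7:45457944-45459884 on the minus strand, with 4 exons in its longest transcript. Its level was 2196, 1994 and 1668 CPM in the day-0 mice and 1392, 1224 and 1292 CPM in the day-21 mice. All day-21 mice lay below all day-0 mice, and the day-21 mice were the closer to each other. The mean was 1952 ± 266 CPM (SD, n = 3) on day 0 and 1303 ± 84.5 CPM (SD, n = 3) on day 21. The log2 fold change was -0.58 (SE 0.13, adjusted p = 0.00512, edgeR quasi-likelihood test, Benjamini-Hochberg adjustment), a fold of 1.499 that lies just under the fold needed for a call. With DESeq2, with RLE scaling, without day-0 replicate 3 and without day-21 replicate 1 the gene was called lower, with log2 fold changes of -0.62, -0.62, -0.70 and -0.63. It was -0.20 with library size alone.

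The counts of Ftl1 are less certain than those of Fth1. Gm10252, a transcript model of the annotation's TEC class on the opposite strand (chr7:45459469-45460300), shares 355 exon bases with Ftl1, which is 26.5% of the exon bases of Ftl1. In the 6 mice its count was 98.65% to 100.1% of that of Ftl1, and its log2 fold change was -0.58 as well. Whether the counting used strand is not given in the sources used here, so reads of the 2 genes cannot be told apart. Ftl1 also shares 58.4% of its 50-base words with 17 other genes, 8 of them processed pseudogenes. Among these, Ftl1-ps1 had 110 to 196 counts per mouse, against 16184 to 24191 for Ftl1. Fth1 shares 1.59% of its words with 1 processed copy, Gm6977, which had 0 to 6 counts per mouse.

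Iron uptake was represented by the carrier transferrin, its receptor and DMT1. Trf encodes transferrin, which the liver makes for plasma (chr9:103204001-103230444, minus strand). Its counts were 1, 0 and 1 on day 0 and 2, 5 and 0 on day 21. These values lie at or near 3 counts, the smallest level taken as visible (0.179 to 0.309 CPM depending on the mouse). A same-strand gene model, Gm20425, covers 63.5% of the exon bases of Trf and had 0 counts in every mouse, and only 463 of the 2571 bases of the longest Trf transcript lie in no other gene. The level of Trf in these kidneys therefore cannot be read from the table.

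Tfrc encodes transferrin receptor 1, which takes iron-loaded transferrin into cells. It lies at chr16:32608920-32632794 on the plus strand, with 19 exons, and shares no exon base with another gene. Its level was 59.4, 81.4 and 64.6 CPM in the day-0 mice and 44.2, 31.1 and 39.3 CPM in the day-21 mice. All day-21 mice lay below all day-0 mice. The mean fell from 68.4 ± 11.5 CPM (SD, n = 3) to 38.2 ± 6.62 CPM (SD, n = 3). It fell by 0.84 on the log2 scale (SE 0.16, 95% CI -1.20 to -0.49, adjusted p = 0.00176, edgeR quasi-likelihood test, Benjamini-Hochberg adjustment), or 1.795-fold lower. This gene carries the 4 hairpins in its 3′ UTR shown above. With library size alone the log2 fold change was -0.45, under the fold needed for a call.

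Slc11a2 encodes DMT1, which brings ferrous iron across the apical membrane and out of endosomes. It lies at chr15:100387898-100425072 on the minus strand, with 16 exons in its longest transcript. Its level was 92.3, 112.5 and 88.1 CPM in the day-0 mice and 87.5, 61.7 and 65.5 CPM in the day-21 mice. The groups did not overlap, but day-21 replicate 1 lay within 1 CPM of the lowest day-0 mouse. The mean was 97.7 ± 13.03 CPM (SD, n = 3) on day 0 and 71.6 ± 13.9 CPM (SD, n = 3) on day 21. The difference was -0.45 on the log2 scale (SE 0.15, adjusted p = 0.0355, edgeR quasi-likelihood test, Benjamini-Hochberg adjustment). The fold of 1.366 was under that needed for a call. Without day-21 replicate 1 the gene was called lower, at -0.62, and with library size alone the value was -0.06. Slc11a2 shares 6.33% of its exon bases with Gm5475 on the opposite strand, which had 46 to 98 counts per mouse.

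Both genes of export and oxidation were called higher. Slc40a1 encodes ferroportin, the exporter of cellular iron, which sits in the basolateral membrane of tubule cells and in macrophages that recycle iron. It lies at chr1:45908068-45926523 on the minus strand, with 5 exons in its longest transcript, and shares no exon base with another gene. Its level was 78.3, 50.0 and 40.7 CPM in the day-0 mice and 103.4, 95.03 and 84.6 CPM in the day-21 mice. All day-21 mice lay above all day-0 mice, and day-0 replicate 1 was the closest to them. The mean rose from 56.4 ± 19.6 CPM (SD, n = 3) to 94.4 ± 9.40 CPM (SD, n = 3). On the log2 scale it rose by 0.74 (SE 0.21, 95% CI 0.28 to 1.20, adjusted p = 0.0140, edgeR quasi-likelihood test, Benjamini-Hochberg adjustment), or 1.675-fold higher.

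The call of Slc40a1 depended on single day-0 mice. Without day-0 replicate 2 the log2 fold change was 0.66 (adjusted p = 0.0579 by edgeR), and without day-0 replicate 3 it was 0.54 (adjusted p = 0.0307 by edgeR), with a fold under that needed for a call. Without day-0 replicate 1 it was larger, at 1.03. Macrophage markers rose with Slc40a1, as given above, and their part in its rise was not tested.

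Cp had the largest change of the group. It encodes ceruloplasmin, the copper-bearing ferroxidase that oxidizes exported iron so that transferrin can bind it, and which is also an acute-phase protein. It lies at chr3:19957054-20009145 on the plus strand, with 20 exons in its longest transcript. Its level was 103.4, 62.5 and 52.7 CPM in the day-0 mice and 695.5, 711.4 and 715.6 CPM in the day-21 mice. Every day-21 mouse lay more than 6 times above the highest day-0 mouse, and the 3 day-21 mice were nearly equal. The mean rose from 72.8 ± 26.9 CPM (SD, n = 3) to 708 ± 10.6 CPM (SD, n = 3). On the log2 scale the rise was 3.28 (SE 0.23, 95% CI 2.78 to 3.79, adjusted p = 3.44e-06, edgeR quasi-likelihood test, Benjamini-Hochberg adjustment), or 9.72-fold higher, which ranked 323 from the top among the 16592 genes tested. The value stayed between 3.08 and 3.67 under each alternative tried, and Cp was called higher in each. Hps3, on the opposite strand, shares 1.13% of the exon bases of Cp and had 389 to 471 counts per mouse. That was 37.7%, 58.2% and 84.0% of the counts of Cp in the day-0 mice and 3.56% to 4.79% in the day-21 mice, and the share of reads the 2 genes have in common was not tested.

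**Figure D2:**
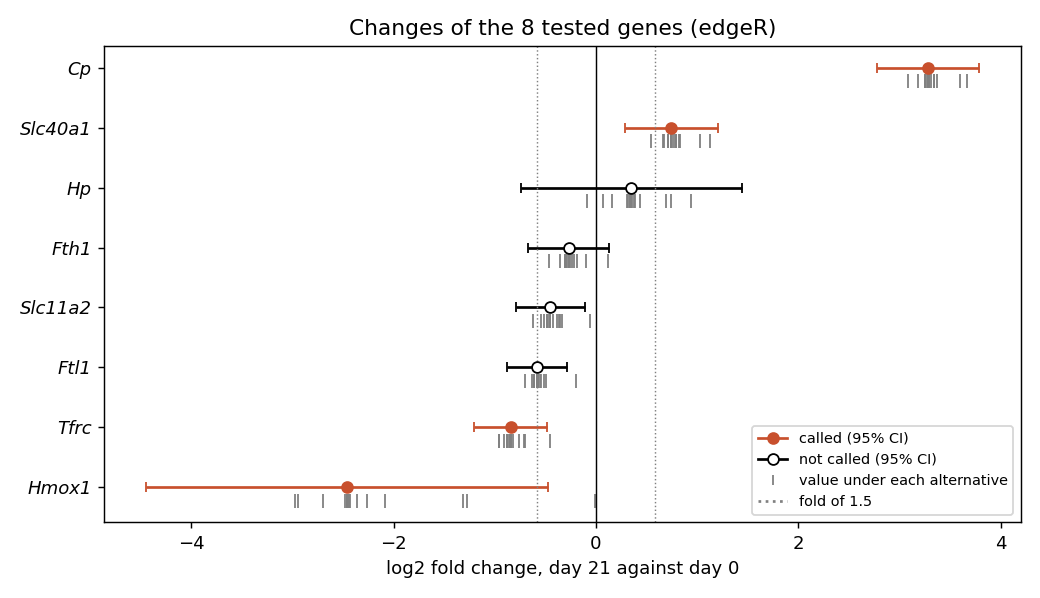
Log2 fold change of the 8 tested genes, day 21 against day 0, with 95% confidence intervals from edgeR, filled points for called genes and small ticks for the value under each alternative. The ticks of Cp stay between 3.08 and 3.67, whereas those of Hmox1 reach from -2.97 to -0.01.

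Of the proteins that bind hemoglobin and heme in plasma, both had few counts in the kidney. Hp encodes haptoglobin, which binds free hemoglobin (chr8:109575128-109579172, minus strand, 5 exons). Its counts were 20, 31 and 58 on day 0 and 28, 113 and 74 on day 21, or 2.01, 2.56 and 5.98 CPM against 1.98, 6.74 and 4.53 CPM. The groups overlapped, with the lowest mouse of all on day 21. The log2 fold change was 0.35 (SE 0.49, 95% CI -0.74 to 1.44, adjusted p = 0.595, edgeR quasi-likelihood test, Benjamini-Hochberg adjustment), so that levels from 0.597 to 2.72 times that of day 0 were within the interval. A change of Hp was thus not detected, and the counts within a group differed by more than their counting intervals, from 18.6 to 40.5 for the lowest day-21 mouse to 93.1 to 135.9 for the highest (95% exact Poisson). The highest day-0 mouse for Hp, replicate 3, also had the highest summed level of adipocyte markers, 44.3 CPM against 0.401 and 7.91 CPM in the other day-0 mice and 0.537 to 1.63 CPM on day 21. Without that mouse the log2 fold change of Hp was 0.94 (adjusted p = 0.153 by edgeR), and without day-21 replicate 2 it was -0.089. The part of fat cells in the level of Hp was not tested. Hpx encodes hemopexin, which binds free heme (chr7:105591613-105600137, minus strand, 10 exons). Its counts were 0, 6 and 0 in the control mice and 6, 4 and 2 on day 21, which did not pass the filter. Markers of hepatocytes, which make both proteins for plasma, summed to 113.1 to 207.5 CPM on day 0 and 153.1 to 175.4 CPM on day 21, and Ttr had the highest mean of the 8. Of 5 markers tested, Alb and Apoc3 were called lower, at -2.82 and -0.81 on the log2 scale, and Cps1 had 0 counts in every mouse.

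Hmox1 was called lower, but the call rested on 1 mouse. Hmox1 encodes the inducible enzyme that splits heme into biliverdin, carbon monoxide and iron (chr8:75093621-75100589, plus strand, 5 exons), and it shares no exon base with another gene. Its level was 750.0, 57.9 and 43.7 CPM in the day-0 mice and 67.4, 36.2 and 51.2 CPM in the day-21 mice. Day-0 replicate 1 lay 12.96-fold above the next day-0 mouse, and the other day-0 mice lay within the range of the day-21 mice. The log2 fold change was -2.46 (SE 0.89, 95% CI -4.45 to -0.47, adjusted p = 0.0453, edgeR quasi-likelihood test, Benjamini-Hochberg adjustment). Without day-0 replicate 1 it was -0.01 (adjusted p = 0.984 by edgeR). An exact two-sided permutation test of the 6 mice gave p = 0.6.

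Day-0 replicate 1 was compared with the other day-0 mice over all genes. With at least 50 counts there, 6 genes lay more than 5-fold above both other day-0 mice, beside 14 such genes for replicate 2 and 7 for replicate 3. In the other direction, 6 genes of replicate 1 lay under a 5th of both others, beside 0 for replicate 2 and 3 for replicate 3. The 6 high genes, chosen after their values were seen, were Krt20, Hmox1, Gm7265, 2010003K11Rik, Gm17590 and Fgb. Krt20 (a keratin of surface epithelia) had 160 counts there against 3 and 5 in the other day-0 mice, and Fgb (the fibrinogen beta chain) had 145 against 31 and 12. Krt20 and Fgb were called higher on day 21, with log2 fold changes of 3.40 and 3.58 (7.24 and 5.17 without day-0 replicate 1), whereas Hmox1 on day 21 was near the other day-0 mice. Cp and Slc40a1 also had their highest day-0 value in this mouse.

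Hmox2, the constitutive heme oxygenase, gives a reference for Hmox1. Its level was 72.6, 78.2 and 64.7 CPM in the day-0 mice and 69.1, 71.2 and 68.7 CPM in the day-21 mice. The groups overlapped, and its log2 fold change was -0.05 (SE 0.11, adjusted p = 0.759, edgeR quasi-likelihood test, Benjamini-Hochberg adjustment). The enzymes of the next step, the biliverdin reductases Blvra and Blvrb, had log2 fold changes of -0.25 and 0.05 and were not called.

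Levels of different genes can be set side by side only per length. As TPM (counts per kilobase of the union of exons, scaled to a common total without TMM), the group on day 0 ran from the ferritin chains (Ftl1 3170 ± 489 and Fth1 2817 ± 128 TPM, SD, n = 3) through Hmox1 (969.2 TPM in replicate 1, and 67.7 and 55.2 TPM in the others), Slc11a2 (33.3 ± 2.83), Tfrc (23.9 ± 2.71), Cp (16.7 ± 6.77) and Slc40a1 (13.7 ± 5.24) to Hp (4.77 ± 3.003 TPM). On day 21 Cp stood next after the ferritin chains, at 232 ± 6.95 TPM, and above Hmox1 at 92.1 ± 26.4 TPM. Slc11a2 and Slc40a1 were then within their spread of each other, at 35.2 ± 6.27 and 32.8 ± 2.92 TPM, and Tfrc was at 19.3 ± 3.09 TPM. Such comparisons between genes depend on the length used. The union of exons has 6354 bases for Slc11a2 and 9000 for Slc40a1, and their longest transcripts have 4415 and 3928. The order of Ftl1 and Fth1 was within the spread on both days, and the Ftl1 values carry the uncertainty from Gm10252 given above. For Tfrc, Ftl1 and Slc11a2 the groups overlapped on this scale, which lacks the TMM factor. Unlike in normalized CPM, the TPM means of Fth1 (2817 to 3372) and Slc11a2 (33.3 to 35.2) were higher on day 21.

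Ratios between genes of one mouse do not depend on how libraries are scaled, although their level depends on the gene lengths used. Counts per kilobase of Fth1 were 123, 107 and 126 times those of Tfrc on day 0, against 189, 163 and 168 times on day 21. The groups did not overlap, and the mean log2 ratio of storage to receptor was 0.55 higher on day 21 (exact permutation p = 0.1, the smallest possible, adjusted p = 0.2 over 4 ratios). The ratio of exporter to importer, Slc40a1 to Slc11a2, was 0.599, 0.314 and 0.326 on day 0, and on day 21 it was 0.834, 1.09 and 0.913. It too did not overlap, with a mean log2 difference of 1.25 (exact permutation p = 0.1, adjusted p = 0.2). The ratio of the light to the heavy ferritin chain overlapped between days, at a mean log2 difference of -0.28 (exact permutation p = 0.4). Its Ftl1 counts carry the uncertainty from Gm10252 given above. The ratio of Hmox1 to Hmox2 overlapped as well, at -1.27 (exact permutation p = 0.6), and was 0.022 without day-0 replicate 1.

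**Figure D3:**
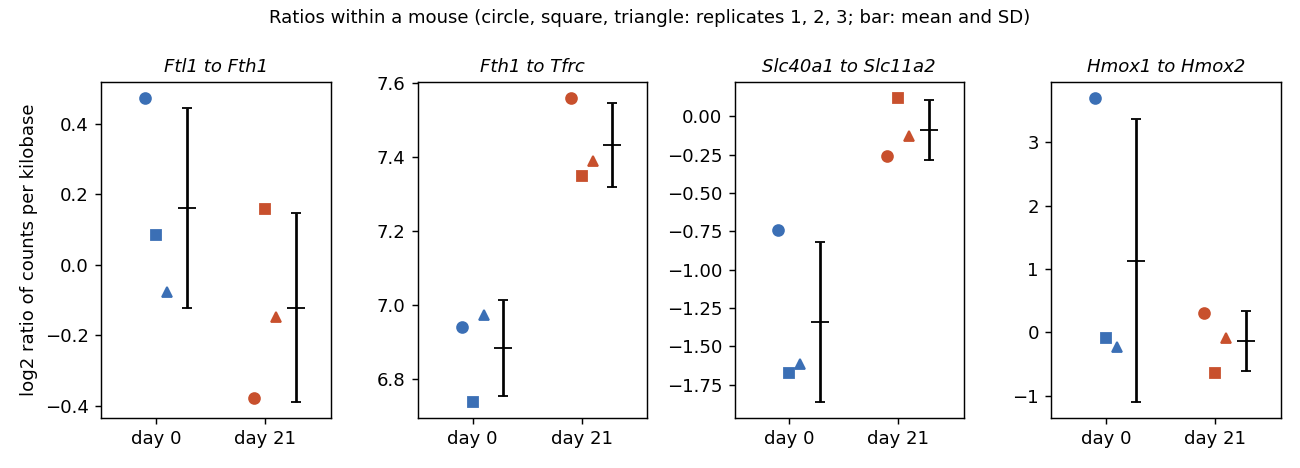
Log2 ratio of counts per kilobase between gene pairs within each mouse, with day 0 in blue, day 21 in red and a bar for mean and SD (n = 3). Fth1 to Tfrc and Slc40a1 to Slc11a2 are higher in all day-21 mice than in all day-0 mice, and Hmox1 to Hmox2 is set apart by 1 day-0 mouse at 3.71.

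The wider pathway was followed in a list of 62 other iron and heme genes. Of these, 56 were tested, and 8 were called higher and 20 lower, beside 19.6% higher and 15.5% lower among all genes tested. The median log2 fold change of the 56 was -0.28, which turned to 0.11 with library size alone. Relative to the median of all genes it was -0.32 under either scaling. Of the 56, 13 were called higher and 10 lower with library size alone, beside 5985 higher and 1338 lower of all 16592 genes. These shares of all genes, under each scaling, also stand beside the counts of the lists below.

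In cellular uptake and iron reduction, 4 of 13 tested genes were called higher and 3 lower, and the median log2 value was 0.76. The counts were 7 higher and 3 lower with library size alone, at a median of 1.14. Relative to the median of all genes it was 0.73 with TMM and 0.72 with library size alone. Lcn2 encodes lipocalin 2, a secreted carrier of iron-binding siderophores that injured tubules are known to release. Its level rose from 7.52, 6.76 and 5.46 CPM in the day-0 mice to 566.4, 481.9 and 481.8 CPM in the day-21 mice, a log2 fold change of 6.27 (SE 0.16, adjusted p = 4.73e-08, edgeR quasi-likelihood test, Benjamini-Hochberg adjustment). Slc22a17, which encodes a receptor for lipocalin 2, was called lower, at -1.10. Meltf (melanotransferrin, an iron-binding membrane protein) had no more than 1 count in any day-0 mouse and 6.03 to 8.06 CPM on day 21, and its day-21 mean of 7.25 CPM was at least 25.4-fold higher than the mean day-0 floor (3 counts per library). Steap1, of a family of metal reductases, rose by 1.71 on the log2 scale, from 8.06 ± 3.19 to 26.4 ± 0.803 CPM (SD, n = 3). The ZIP transporters Slc39a8 and Slc39a14, which carry zinc, manganese and iron that is not bound to transferrin, fell by 1.32 and 1.30. Tfr2, the second transferrin receptor, was at 0.412 to 2.23 CPM on day 0 and 1.01 to 2.97 CPM on day 21, with overlapping groups and an adjusted p of 0.260 by edgeR. Heph, which encodes the ferroxidase hephaestin, rose with Cp, by 0.87 on the log2 scale (SE 0.18, adjusted p = 0.00339 by edgeR), from 15.4 ± 1.17 to 28.1 ± 6.81 CPM (SD, n = 3).

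Among genes that sense iron or set hepcidin, the hormone that makes cells degrade ferroportin, 2 of 7 tested were called higher and 1 lower. Aco1, which encodes IRP1 (a cytosolic aconitase when it holds an iron-sulfur cluster), fell by 0.98 on the log2 scale (SE 0.13, adjusted p = 0.000174, edgeR quasi-likelihood test), from 334.9 to 437.8 CPM in the day-0 mice to 176.2 to 211.1 CPM in the day-21 mice. Ireb2, which encodes IRP2, had a log2 fold change of -0.45 (adjusted p = 0.0116 by edgeR), under the fold needed for a call. Hfe, which encodes a partner of the transferrin receptors, rose by 0.99. Tmprss6, which encodes a protease that restrains hepcidin in liver, had no more than 1 count in any day-0 mouse and 2.92 to 4.17 CPM on day 21, and its day-21 mean of 3.59 CPM was at least 12.6-fold higher than the same floor. Hamp, which encodes hepcidin, and Hamp2 had 0 counts in all 6 mice, where 3 counts would be 0.179 to 0.309 CPM.

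Of 3 tested genes for iron chaperones and ferritin turnover, 1 was called. Ncoa4, which encodes the receptor that delivers ferritin to the lysosome, fell by 1.30 on the log2 scale (SE 0.14, adjusted p = 4.79e-05, edgeR quasi-likelihood test, Benjamini-Hochberg adjustment). Its level was 190.9, 147.0 and 164.4 CPM in the day-0 mice and 76.1, 57.7 and 70.6 CPM in the day-21 mice, with no overlap. The chaperones Pcbp1 and Pcbp2, which hand iron to ferritin, had log2 fold changes of -0.26 and -0.20 and were not called.

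The median log2 fold change was -0.56 for mitochondrial iron and iron-sulfur cluster genes, and of 9 tested, 4 were called lower and 5 were not called. With library size alone the median was -0.17 and 1 of these genes was called lower. Relative to the median of all genes, the list stood at -0.59 under either scaling. Nfs1 (the cysteine desulfurase that supplies sulfur) fell by 1.30, and Iscu (the scaffold protein) fell by 0.82. The level of Nfs1 was 124.0, 145.6 and 125.6 CPM in the day-0 mice and 52.0, 52.0 and 57.0 CPM in the day-21 mice. Lyrm4, a partner of Nfs1, fell by 0.62. Mitochondrially encoded genes took 9.39% to 9.86% of the counts on day 0 and 3.82% to 4.42% on day 21. With these left out of the library, the wider pathway still had 8 higher and 20 lower calls. Any other part of theirs in the fall of the nuclear genes of this list was not tested.

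Heme synthesis genes had the lowest median of the 7 lists, -0.79, with 6 of 9 called lower and 3 not called. With library size alone the median was -0.40, with 1 gene called lower and 1 higher, and relative to all genes it was -0.83 with TMM and -0.82 with library size alone. Alas2, the erythroid form of the first enzyme, which carries the hairpin shown above, fell by 2.35 (SE 0.47, adjusted p = 0.00246, edgeR quasi-likelihood test, Benjamini-Hochberg adjustment). Its level was 9.43, 23.7 and 5.98 CPM in the day-0 mice and 2.90, 1.73 and 3.12 CPM in the day-21 mice. The red cell and erythroid markers, a list to which Alas2 belongs, summed to 229.9 to 528.7 CPM on day 0 and 37.1 to 85.4 CPM on day 21. In that list 6 of 7 tested markers were called lower, and Epb42 was called higher. Day-0 replicate 2, the highest mouse for these markers, was also the highest for Alas2, and the part of blood in the kidney in the fall of Alas2 was not tested. Cpox and Fech, later enzymes of the pathway, fell by 0.95 and 0.82. Alas1, the form of the first enzyme used outside red cell precursors, fell by 0.79, from 278 ± 79.7 to 160 ± 13.6 CPM (SD, n = 3). Ppox, the enzyme before Fech, had a log2 fold change of 0.22 and was not called.

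**Figure D4:**
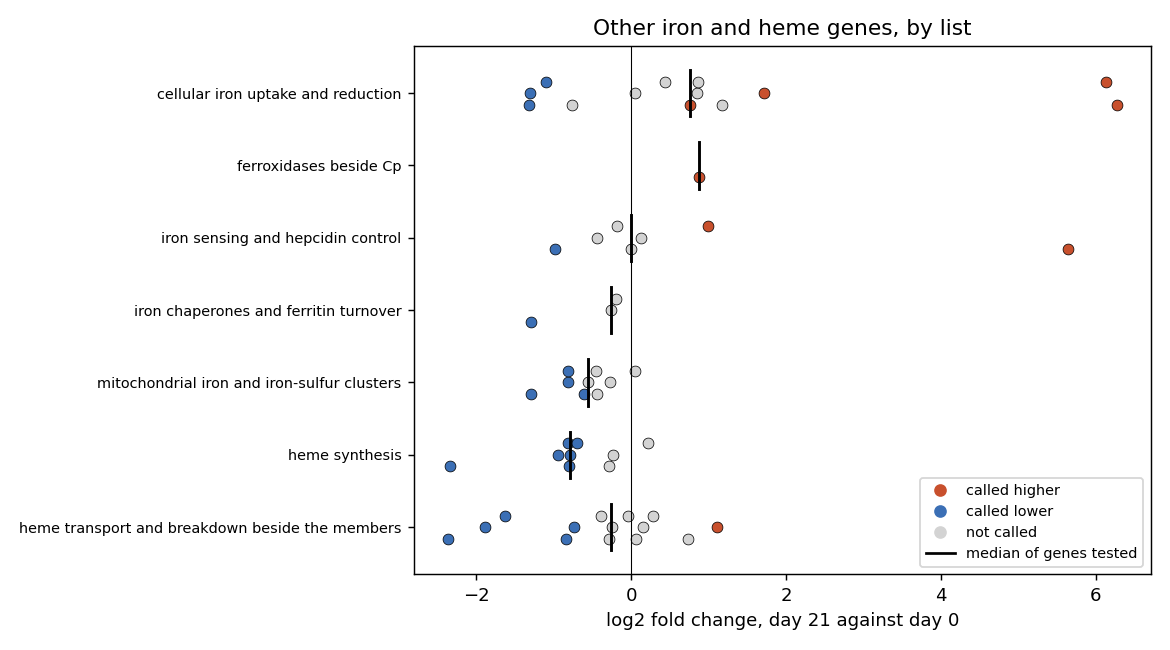
Log2 fold change of the 56 tested genes of the wider iron and heme pathway, 1 row per list, with red for called higher, blue for called lower and grey for not called, and a bar at the list's median. Heme synthesis has 6 blue and 3 grey points and a median of -0.79, and the 3 points beyond 5 are Lcn2, Meltf and Tmprss6, of which Meltf and Tmprss6 were at the floor on day 0 so that their place depends on the fit.

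The list for transport and breakdown of heme leaves out the 10 genes of the group but includes Hmox2, Blvra and Blvrb. Its genes were called lower in 5 of 14 cases and higher in 1, and with library size alone in 3 and 2. Lrp2 and Cubn encode megalin and cubilin, the endocytic receptors with which the proximal tubule recovers filtered proteins, transferrin and hemoglobin among them. Lrp2 fell from 2858, 2410 and 2435 CPM in the day-0 mice to 590.8, 433.8 and 465.2 CPM in the day-21 mice, a log2 fold change of -2.37 (SE 0.15, adjusted p = 2.51e-06, edgeR quasi-likelihood test, Benjamini-Hochberg adjustment). Cubn fell by 1.89, and Flvcr2, which encodes a heme carrier, fell by 1.64. Lrp2 and Cubn are also on the list of proximal tubule markers, all of which fell, so the receptors are not a separate sign of it. Lrp1, which encodes the receptor that takes up heme bound to hemopexin, rose by 1.11, from 65.5 ± 17.8 to 141 ± 29.0 CPM (SD, n = 3). Cd163, the macrophage receptor for hemoglobin bound to haptoglobin, was at 0.577 to 1.03 CPM on day 0 and 0.636 to 2.02 CPM on day 21 and was the 1 macrophage marker of 10 that was not called.

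**Figure D5:**
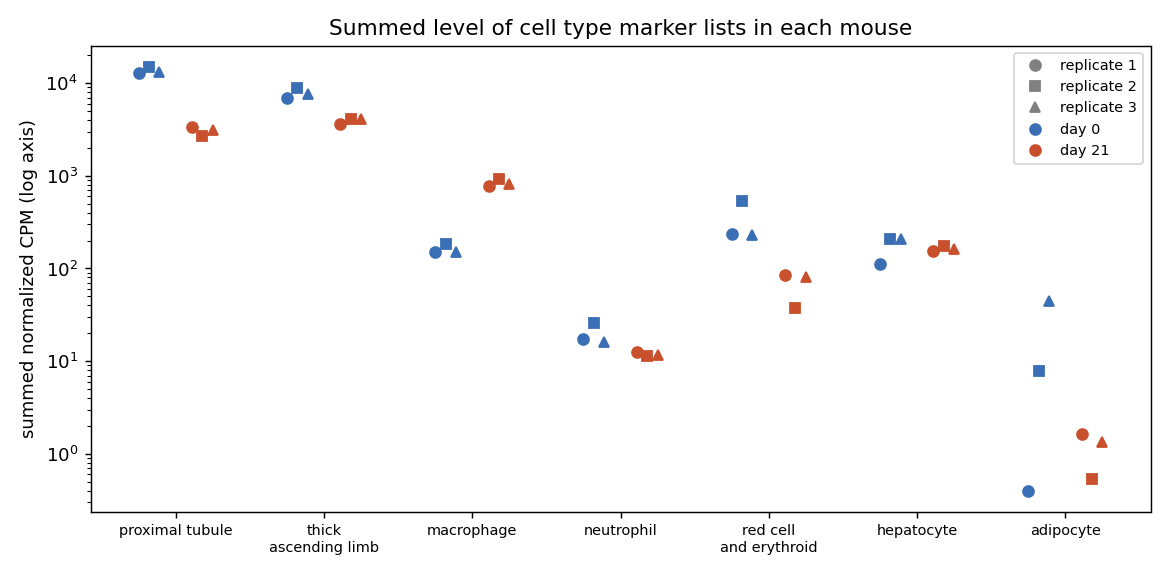
Summed normalized CPM (log axis) of 7 lists of cell type markers in each mouse, with day 0 in blue, day 21 in red and symbols for the replicate. Proximal tubule and red cell markers are lower and macrophage markers higher in all day-21 mice, and adipocyte markers reach 44.3 CPM in day-0 replicate 3.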

How the data were processed

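The authors extracted kidney RNA, sequenced it in paired ends of 150 bases and deposited raw counts per gene for each mouse, with no normalization. The submitters' processing notes name TopHat and mm10, and the counting program, its strand setting and filters on reads are not given in the sources used here. All identifiers were those of GENCODE mouse release 21 on GRCm38, and 0 columns stayed unmapped.

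The counts were tested with edgeR 4.0.16 in R 4.3.3 (filterByExpr at a minimum count of 10 and total of 15, TMM, quasi-likelihood test, no replicate block). Benjamini-Hochberg adjustment ran over 16592 genes. DESeq2 1.42.0 and limma 3.58.1 were alternatives, as were other scalings, filters and thresholds, a replicate block and leaving out each mouse. Robust dispersion, and Krt20 and Fgb without day-0 replicate 1, were added after seeing the data. Figures used Python 3.11.15 and matplotlib 3.10.9. Folds from 0 or few counts were set against a floor of 3 counts per library, which covers counting error only.

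On simulated counts with 200 of 16324 genes changed 3-fold between day 0 and day 21, edgeR called 172 of them and 11 unchanged genes. The changes ran evenly up and down, and the groups had the same mean levels otherwise, whereas 35.1% of genes were called in the data. The simulation therefore does not give the error rates of these data and does not test the scaling. No mice were duplicates, since the chi-square per gene within a group was 7.19 to 24.

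The genes, pathway lists and marker lists were chosen with earlier results of these data known. Beside the 10 genes, the text names the up to 3 called genes at either end of each pathway list (apart from a gene that is not reported here), 8 fixed genes (Tfr2, Heph, Hmox2, Hamp, Lcn2, Aco1, Ireb2 and Ncoa4), leading markers and genes sharing sequence with the group. Named beyond this rule, after their values were seen, were Lyrm4, Alas1, Ppox, Hamp2, Pcbp1, Pcbp2, Blvra, Blvrb, Cd163, Epb42, Alb, Apoc3, Cps1, Cldn16, Csf3r and the genes high in day-0 replicate 1. Thick ascending limb markers summed to 6977 to 8893 CPM on day 0 and 3630 to 4083 CPM on day 21, and neutrophil markers to 16.0 to 26.1 and 11.3 to 12.4 CPM. Of 4 thick ascending limb markers tested, 2 were called lower and 1 higher (Cldn16), and Umod, with the highest mean, was not called. Among 8 neutrophil markers 4 were tested, of which 2 were called lower and 1 higher (Csf3r), and 2 others had 0 counts in every mouse.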

Additional observations from a re-analysis of the deposited data

How the results depend on the processing

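Cp kept its call under all 17 alternatives. With library size alone the log2 median over all genes moved by 0.39. It gave 5985 higher and 1338 lower genes (81.7% of calls higher, against 55.8%), 0 lower calls in the iron group by edgeR (Tfrc kept an adjusted p of 0.0240 but not the fold), and 13 higher and 10 lower genes in the wider pathway. It turned Fth1 to 0.12, and left Tfrc at -0.45. At an adjusted p of 0.01 and a fold of 2 there were 1918 higher and 1254 lower genes, 1 higher and 0 lower in the iron group, and 5 higher and 9 lower in the pathway. At any fold, 4 genes of the group were lower. A single lower call was left in the group with genes at a mean of at least 50 counts, limma-voom, the replicate block and robust dispersion (1 in each), and in each Hmox1 was the gene lost, with log2 fold changes of -2.43, -1.31, -1.27 and -2.46 and adjusted p of 0.0536, 0.229, 0.0938 and 0.220. With library size alone it was -2.09 (adjusted p = 0.0665). DESeq2 gave Hmox1 no adjusted p, and its 2 lower calls were Tfrc and Ftl1. Without the filter on low counts the adjusted p of Hmox1 was 2.11e-61 by edgeR. In that fit the adjusted p was lower than in the main fit for each tested gene of the group. It was 1.13e-103 for Cp and 3.20e-08 for Tfrc, so the low value is not particular to Hmox1. Leaving out 1 mouse at a time gave 1 to 2 higher and 1 to 3 lower calls in the group. It gave Hmox1 a range of -2.97 to -0.01, the log2 ratio of Hmox1 to Hmox2 a range of -1.95 to 0.022, and Hp a range of -0.089 (without day-21 replicate 2) to 0.94 (without day-0 replicate 3). The call of Hmox1 was also lost without each day-21 mouse in turn (adjusted p of 0.0797, 0.128 and 0.106). Causes of these shifts were not tested. The replicate numbers name no shared animals, since the groups were killed on different days. Correlations between same-numbered mice were -0.02, 0.166 and 0.089, of which 0.166 was the highest between any 2 mice of different groups. Replicate 1 of either group did not correlate best with its own number. Nor did day-0 replicate 3, which stood at 0.118 with day-21 replicate 1. With 3 mice per group these values cannot exclude a batch shared by same-numbered mice. With the replicate block 3235 genes were higher and 2523 lower, and no other call in the group changed. Trf and Hpx had at most 6 counts in any mouse, and for Trf the exon bases that Gm20425 covers also limit what the counts can show.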
